A study of Mus musculus with 8 samples.

Results

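Mature miRNAs were compared between RA-differentiated cells (RA-DIFF) and embryonic stem cells (ESC), both labelled Htt-null, and each condition was represented by 1 small RNA library. Of the 1073 mature miRNAs in the deposited table, 828 had at least 10 counts in either library and were taken as members. Among them 612 reached 10 counts in both libraries, 65 in RA-DIFF only and 151 in ESC only. At the limit, 20 members had a higher count of exactly 10, and 17 miRNAs with a higher count of 9 were left out. The study asked how inactivation of the huntingtin gene (Htt) acts during the differentiation of mouse cells, and the Htt-null line is homozygous for the Hdh ex4/5 allele, a targeted null allele of Htt. The Htt-null ESC and the wild-type parental ESC, which serve here for a side by side comparison, were grown without feeder cells for 4 passages after maintenance on fibroblast feeders or gelatin. RA-DIFF cells were obtained from both lines by growing embryoid bodies, adding retinoic acid, dissociating them and collecting the cells shortly after plating, so that the RA-DIFF samples are mixtures of whatever cells the embryoid bodies contained. With 1 library a side there is no estimate of the spread between cultures, and no test that rests on such an estimate was possible. Intervals cover counting error only.

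A mature miRNA of about this length is cut by Drosha and Dicer from one arm (5p or 3p) of a hairpin and is loaded into an Argonaute protein, where the bases from position 2 to 8, the seed, pair with target mRNAs. Several miRNA clusters are known as stage markers in the mouse. The miR-290 to miR-295 cluster is the main miRNA product of pluripotent ESC, the miR-10 and miR-196 genes lie inside the Hox clusters, which retinoic acid opens in order along the chromosome, and miR-9, miR-124 and miR-219a are enriched in the nervous system.

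The sequences of the miRNAs that carry most of the change are given here, from RefSeq on GRCm38.p6, 5′ to 3′, with the seed in capitals, to show which of them share a seed and would therefore be grouped as one family. A RefSeq mature sequence was found for 707 of the 828 members, and these covered 99.1% of the RA-DIFF and 96.7% of the ESC counts. The first group was higher in RA-DIFF or is a close relative of one that was. Within it, miR-10a-5p differs from miR-10b-5p by U12A and miR-99a-5p from miR-100-5p by U16A, with positions counted from the 5′ end.
miR-10a-5p: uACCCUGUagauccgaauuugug
miR-10b-5p: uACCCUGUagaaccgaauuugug
miR-99a-5p: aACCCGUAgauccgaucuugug
miR-100-5p: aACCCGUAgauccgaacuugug
miR-99b-5p: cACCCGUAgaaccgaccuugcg
miR-181a-5p: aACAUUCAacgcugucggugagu
miR-181b-5p: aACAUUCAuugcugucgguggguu
miR-181c-5p: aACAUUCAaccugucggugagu
miR-181d-5p: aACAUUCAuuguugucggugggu
miR-9-5p: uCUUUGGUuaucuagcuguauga
miR-219a-5p: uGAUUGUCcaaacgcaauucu
miR-92b-3p: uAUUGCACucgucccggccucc
miR-92a-3p: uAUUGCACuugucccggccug

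The second group was lower in RA-DIFF or is a relative of one that was, and it holds the miR-290 to miR-295 and miR-302 products that share one seed, the 3 miRNAs of the miR-183 cluster, miR-127-3p and the miR-196 pair, which differ by A12C.
miR-295-3p: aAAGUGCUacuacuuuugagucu
miR-294-3p: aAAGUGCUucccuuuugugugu
miR-291a-3p: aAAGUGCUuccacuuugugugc
miR-302d-3p: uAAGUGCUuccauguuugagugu
miR-182-5p: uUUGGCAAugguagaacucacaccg
miR-183-5p: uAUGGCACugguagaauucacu
miR-96-5p: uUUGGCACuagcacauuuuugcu
miR-127-3p: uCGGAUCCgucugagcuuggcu
miR-196a-5p: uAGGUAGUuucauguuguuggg
miR-196b-5p: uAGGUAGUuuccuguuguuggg

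The libraries held 24290346 counts in RA-DIFF and 11976744 in ESC. Where a miRNA had 0 counts, its true level could reach 3 counts, or 0.124 CPM (counts scaled to the library total) in RA-DIFF and 0.250 CPM in ESC. Matched RNA-seq of the same conditions, with 1 library each, showed a level of 674 CPM of Pou5f1 in Htt-null ESC against 1.22 CPM in the RA-DIFF sample labelled Htt-null. Nanog and Zfp42, which like Pou5f1 mark pluripotent cells, were at 725 and 1011 CPM in Htt-null ESC and at 1.91 and 0.783 CPM in RA-DIFF, whereas Nes, an intermediate filament gene of neural progenitors, went from 11.5 to 812 CPM. Htt itself was at 164 CPM in wild-type and 114 CPM in Htt-null ESC, but at 74.3 CPM in the RA-DIFF sample labelled wild type and 96.3 CPM in the one labelled Htt-null, which goes against the order of the labels. These counts run over the whole gene and do not separate the deleted exons, so they do not settle the genotype. The RA-DIFF library is therefore named by its label, and values with the other RA-DIFF library in its place are given where they matter.

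The largest change in share of counts was that of miR-10a-5p and miR-10b-5p, from genes of the Hox clusters. miR-10a-5p, encoded at chr11:96317186-96317208 on the plus strand between Hoxb5 and Hoxb4, had 10127 counts in ESC and 10090451 in RA-DIFF. miR-10b-5p, at chr2:74726074-74726096 on the plus strand within the annotated extent of Hoxd3 and Hoxd4, had 25019 counts in ESC and 10131529 in RA-DIFF. Together they took 0.293% of the ESC counts and 83.3% of the RA-DIFF counts (exact 95% binomial interval 83.2% to 83.3%). Because reads of all other miRNAs share what is left, the ratio of every miRNA depends on whether this pair counts in the library total. Without the pair the totals were 4068366 in RA-DIFF and 11941598 in ESC. The change of total added 2.57 to each log2 ratio of RA-DIFF over ESC, and scaling by the trimmed mean of M-values (TMM), which the study used, added 1.88. The median log2 ratio over the 828 members was -2.27 with the library total, 0.31 without the pair and -0.39 after TMM.

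**Figure D1:**
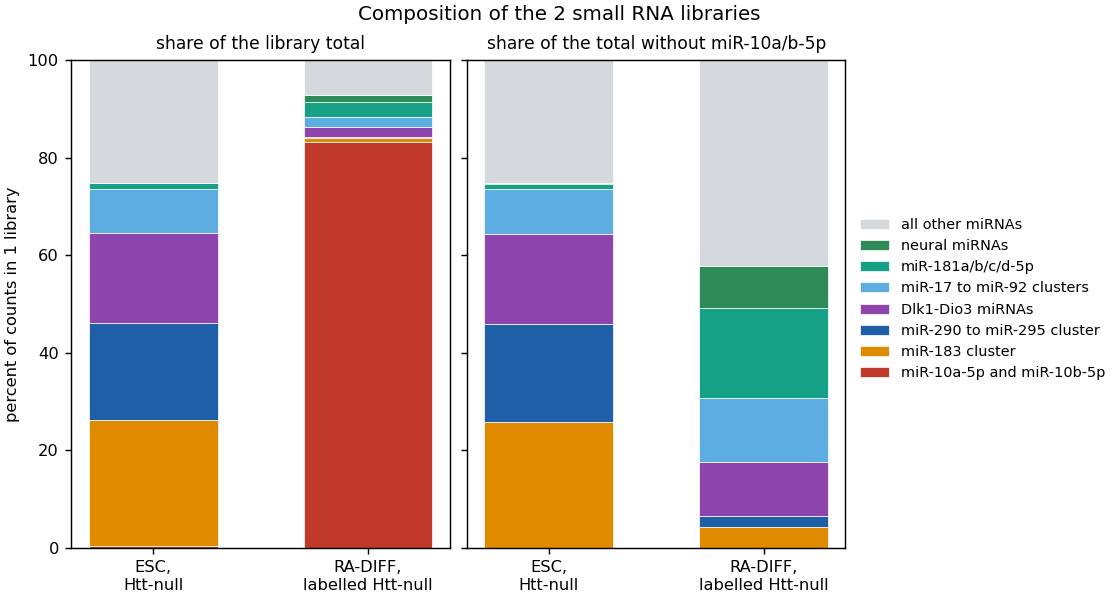
Stacked bars give the percent of counts taken by miRNA groups in the Htt-null ESC library and in the RA-DIFF sample labelled Htt-null, with miR-10a-5p and miR-10b-5p in the total (left) and left out (right). The pair fills 83.3% of the RA-DIFF library, and without it the miR-183 cluster shrinks from 25.8% to 4.25% and the miR-181 5p group grows from 1.13% to 18.5%.

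A member was therefore counted as higher or lower in RA-DIFF only when its log2 ratio passed 0.75, the fold limit of the study, in the same direction under all 3 scalings. Under this rule 104 members were higher, or 12.6% of 828, 253 were lower, or 30.6%, and 471 were neither. The sign of the ratio was positive under each scaling for 142 members and negative for 366, and for 320 it depended on the scaling. With the library total alone 104 members were higher and 628 (75.8%) lower, without the pair alone 347 (41.9%) were higher and 253 lower, and with TMM alone 245 (29.6%) were higher and 356 (43%) lower. The higher members had a median TMM log2 ratio of 4.51 and the lower ones of -2.46. Of the higher members 57 reached the count minimum of 10 in only 1 library, as did 94 of the lower ones, so the filter itself required these to differ. The 104 higher members took 0.748% of the ESC and 88.7% of the RA-DIFF counts, and the 253 lower ones 68.8% and 2.38%. Without the miR-10 pair the shares were 0.456% and 32.8% for the higher members, and 69.0% and 14.2% for the lower. In bulk RNA, fewer cells of a type and less RNA per cell cannot be told apart.

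**Figure D2:**
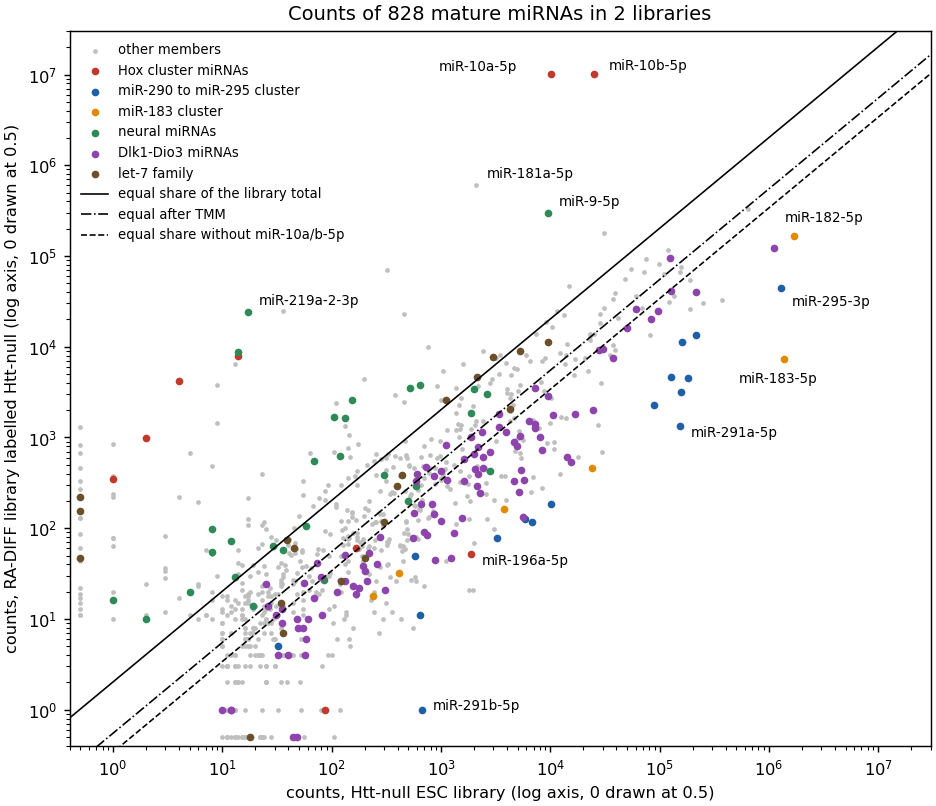
Each point is 1 of the 828 members, with its counts in the Htt-null ESC library on the x axis and in the RA-DIFF sample labelled Htt-null on the y axis, both log axes, and 0 drawn at 0.5. The 3 lines mark equal levels under the 3 scalings, miR-10a-5p and miR-10b-5p stand above all other points, and points between the lines change sign with the scaling.

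The ranking of the most abundant miRNAs was largely replaced, and 3 miRNAs were among the 10 most abundant of both libraries. In ESC the 10 most abundant were, in falling order, miR-182-5p, miR-183-5p, miR-295-3p, miR-127-3p, miR-92a-3p, miR-191-5p, miR-27b-3p, miR-410-3p, miR-292a-5p and miR-5126, and they held 61.4% of counts. In RA-DIFF the order was miR-10b-5p, miR-10a-5p, miR-181a-5p, miR-92a-3p, miR-9-5p, miR-92b-3p, miR-182-5p, miR-127-3p, miR-30e-5p and miR-434-3p, with 91.1% of counts. Of the 10 in the ESC set, 9 were lower in RA-DIFF, against 30.6% of all members, but choosing miRNAs by high ESC counts itself favours a lower ratio. The exception was miR-92a-3p, with 644732 counts in ESC and 331297 in RA-DIFF, whose TMM log2 ratio was -0.10. miR-30e-5p kept nearly the same number of counts, 118857 in ESC and 117047 in RA-DIFF, with log2 ratios of -1.04 with the library total and 1.53 without the miR-10 pair.

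All 9 listed miRNAs of the Hox clusters were members, 6 of them higher (66.7%, against 12.6% of all) and 2 lower (22.2%, against 30.6%) in RA-DIFF, with a median TMM log2 ratio of 9.52 against -0.39 over all members. Of the higher ones, miR-10a-5p and miR-10b-5p are the pair that the scaling rule singles out. miR-10a-3p, miR-10b-3p and miR-615-5p, with 4, 2 and 1 counts in ESC, reached the count minimum in RA-DIFF alone. The filter itself required these to differ, as it did for the lower miR-196a-1-3p, with 86 counts in ESC and 1 in RA-DIFF. The passenger strands followed the guide strands: miR-10a-3p had 4 counts in ESC and 4217 in RA-DIFF, and miR-10b-3p 2 and 986 (TMM log2 ratio 9.80, counting interval 7.95 to 12.85). miR-615-3p, from a hairpin within the annotated extent of Hoxc5, went from 14 to 7889 counts, a log2 ratio of 8.12 with the library total. The miR-196 genes, which sit further toward the 5′ end of the Hox clusters beside the group 9 and 10 paralogues, did not share this direction. miR-196a-5p had 1893 counts in ESC and 52 in RA-DIFF, a TMM log2 ratio of -4.33, and it was lower under each scaling. miR-196b-5p had 168 and 61 counts, and its log2 ratio was -2.48 with the library total and 0.09 without the pair. Since miR-196a-5p and miR-196b-5p differ at 1 base, as do miR-10a-5p and miR-10b-5p, and the mapping allowed 1 mismatch, the split of reads within each pair is uncertain.

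The Hox genes beside these hairpins were expressed at low levels in the matched RNA-seq. Hoxb4, 993 bp from the Mir10a hairpin, had 17 counts in ESC and 390 in RA-DIFF, a log2 CPM ratio of 3.85. Hoxb5, on the other side of Mir10a, had 0 and 237 counts, a log2 CPM ratio of at least 5.64. Both genes whose annotated extent holds Mir10b rose. Hoxd3 had 0 and 87 counts, a log2 CPM ratio of at least 4.19, and Hoxd4 8 and 54, a log2 CPM ratio of 2.09. On the lower coordinate side of Mir10b, Hoxd8 had 65 and 243 counts, a log2 CPM ratio of 1.24. On the higher coordinate side Hoxd1, 36843 bp away, had 26 and 25, a log2 CPM ratio of -0.72. Hoxc5, whose annotated extent holds the miR-615 hairpin and also Mir196a-2, had 10 and 217 counts, a log2 CPM ratio of 3.77. Next to the miR-196 hairpins, Hoxb9 went from 70 to 444 counts, a log2 CPM ratio of 2.00. Hoxa9, whose annotated extent holds Mir196b, had 4 and 86 counts, a log2 CPM ratio of 3.76, and Hoxa7 and Hoxc10 had log2 CPM ratios of 1.39 and 2.96. Hoxc9 had 27 and 64 counts, a log2 CPM ratio of 0.58, while Hoxa10 had 27 and 13, a log2 CPM ratio of -1.72, and Hoxb13 9 and 5. The Hoxb9 mRNA and the nearby miR-196a-5p, which has a further gene copy in the Hoxc cluster, thus differed in sign.

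In the miR-290 to miR-295 cluster, 16 of the 17 listed miRNAs were members and all 16 were lower in RA-DIFF (100%, against 30.6% of all), with a median TMM log2 ratio of -4.50. The cluster took 20.05% of ESC counts and 0.354% of RA-DIFF counts, or 2.12% of those left without the miR-10 pair. miR-295-3p alone had 1292268 counts in ESC and 44739 in RA-DIFF, a TMM log2 ratio of -4.00. Its relatives with the seed AAGUGCU ran in parallel, miR-294-3p with 182752 and 4523 counts and miR-291a-3p with 88161 and 2288. miR-291a-5p fell further than its 3p partner, from 153865 to 1339 counts, a TMM log2 ratio of -5.99. The largest drop among members that reached 100 counts in ESC was that of miR-291b-5p, with 672 counts in ESC and 1 in RA-DIFF (TMM log2 ratio -8.54, counting interval -13.84 to -6.05).

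The miR-302 to miR-367 cluster, whose products miR-302b-3p and miR-302d-3p carry the same seed, is known from primed pluripotent cells and early embryos and was far less abundant, at 0.068% of ESC and 0.011% of RA-DIFF counts. Of its 9 members 4 were lower (44.4%, against 30.6% of all), each of them 5p products such as miR-302d-5p with 102 counts in ESC and 9 in RA-DIFF, and none was higher. miR-302d-3p had 5120 and 1169 counts, with log2 ratios of -3.15 with the library total and -0.58 without the pair. For miR-302b-3p, with 1462 and 1007 counts, the log2 ratio was -1.56 with the library total and 1.02 without the pair, so its direction was set by the scaling.

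The miR-183 cluster, known from sensory organs and also abundant in ESC, was the largest group of the Htt-null ESC library with 25.8% of its counts, and it took 0.713% in RA-DIFF. All 6 of its members were lower (100%, against 30.6% of all), with a median TMM log2 ratio of -3.27. Its 3 hairpins differed in size of change although they lie next to each other on the minus strand of chromosome 6, from miR-182-5p at chr6:30165962-30165986 to miR-183-5p at chr6:30169711-30169732. miR-182-5p had 1694470 counts in ESC and 165153 in RA-DIFF, a TMM log2 ratio of -2.50, whereas miR-183-5p had 1363761 and 7247, a TMM log2 ratio of -6.70, and miR-96-5p 24144 and 462, a TMM log2 ratio of -4.85. The ratio of miR-182-5p to miR-183-5p counts changed from 1.24 to 22.8.

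The epithelial list, led by the miR-200 family that restrains the epithelial to mesenchymal transition, had 10 of 13 members lower (76.9%, against 30.6% of all) and 2 higher (15.4%, against 12.6%), with a median TMM log2 ratio of -2.74. miR-141-3p had 12274 counts in ESC and 395 in RA-DIFF, and miR-200b-3p 10820 and 897, with TMM log2 ratios of -4.10 and -2.74. Both arms of miR-203, known from stratified epithelium, went the other way, and miR-203-3p had 141 and 763 counts, a TMM log2 ratio of 3.29.

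Among the miRNAs known from neural tissue, 16 of 29 members were higher in RA-DIFF (55.2%, against 12.6% of all), 1 was lower (3.45%, against 30.6%) and 12 were neither, with a median TMM log2 ratio of 3.18. The higher miR-7a-2-3p, miR-132-5p, miR-7b-3p, miR-7b-5p and miR-137-5p had 8, 8, 1, 5 and 2 counts in ESC. They reached the count minimum in RA-DIFF alone, so the filter itself required these to differ. miR-9-5p, which acts in neural progenitors, had 9546 counts in ESC and 298424 in RA-DIFF, a log2 ratio of 3.95 with the library total and 5.82 after TMM, and it rose to the fifth rank. miR-219a-2-3p, of a family known from oligodendrocytes and neurons, had the largest ratio among members that reached 100 counts in RA-DIFF, with 17 counts in ESC and 23941 in RA-DIFF (TMM log2 ratio 11.32, counting interval 10.64 to 12.10). miR-219a-5p had 14 and 8654 counts, and miR-153-3p 105 and 1680, with TMM log2 ratios of 10.13 and 4.86. miR-138-5p had 644 and 3760 counts and miR-132-3p 119 and 627, with TMM log2 ratios of 3.40 and 3.25.

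For other neural entries, among them miRNAs known from mature neurons, the direction depended on the scaling. miR-124-3p, the strand that neurons accumulate, had 1885 counts in ESC and 1844 in RA-DIFF, with log2 ratios of -1.05 with the library total and 1.52 without the pair, whereas the opposite strand miR-124-5p went from 520 to 3508 counts, a TMM log2 ratio of 3.61. miR-128-3p, with 2638 and 3036 counts, and miR-218-5p, with 2000 and 3431, had log2 ratios of -0.82 and -0.24 with the library total and 1.76 and 2.33 without the pair. In contrast, miR-7a-5p was the lower member, with 2772 and 430 counts and a TMM log2 ratio of -1.83. The 3 products of the miR-129 hairpins differed, and miR-129-2-3p had 69 and 556 counts and was higher, while miR-129-5p, with 587 and 295, and miR-129-1-3p, with 84 and 27, were neither.

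**Figure D3:**
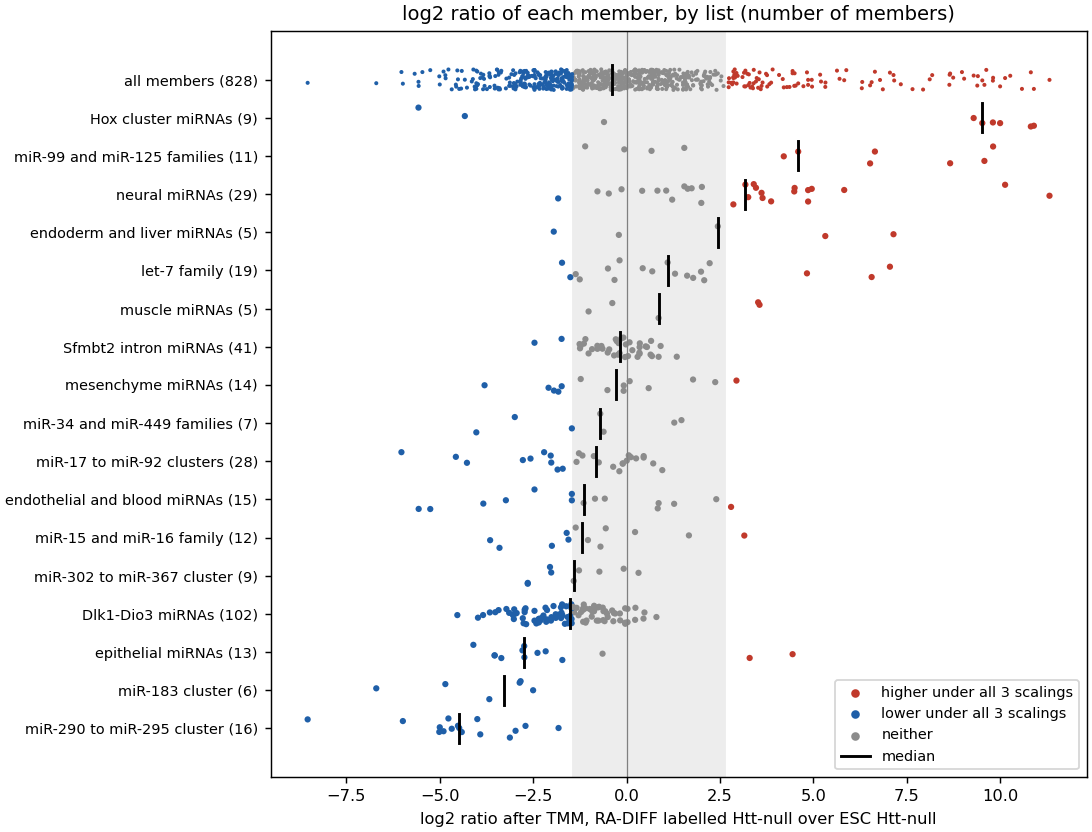
Points give the TMM log2 ratio of RA-DIFF labelled Htt-null over Htt-null ESC for all 828 members and for the members of 17 miRNA lists, with the median as a bar. The grey band holds ratios that do not pass 0.75 under all 3 scalings, the medians run from 9.52 for the Hox cluster miRNAs to -4.50 for the miR-290 to miR-295 cluster, and the miR-290 and miR-183 clusters lie wholly to the left of the band.

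The miR-99 and miR-125 families, of which miR-99 and miR-100 resemble miR-10 in the bases after the seed, had 7 of 11 members higher (63.6%, against 12.6% of all) and none lower, with a median TMM log2 ratio of 4.59. Of the higher members, miR-99a-3p, miR-100-3p and miR-125b-2-3p reached the count minimum in RA-DIFF alone. The change differed between the loci. miR-99a-5p and miR-100-5p differ by 1 base, so the split of reads between them is uncertain. miR-99a-5p, whose host transcript Mir99ahg also carries let-7c-1 and miR-125b-2, had 13 counts in ESC and 6432 in RA-DIFF, a TMM log2 ratio of 9.81. miR-125b-2-3p had 9 and 3790 counts, a TMM log2 ratio of 9.58, and let-7c-1-3p 0 and 219, at least 36.0-fold higher with the library total. From the second such locus miR-100-5p had 454 and 22943 counts, a TMM log2 ratio of 6.52, miR-125b-1-3p 132 and 1345, a TMM log2 ratio of 4.21, and let-7a-2-3p 0 and 47, at least 7.72-fold higher with the library total. miR-99b-5p, from the third locus on chromosome 17, was the most abundant of the families in ESC with 121916 counts and had 31214 in RA-DIFF, and its log2 ratio was -2.99 with the library total and -0.41 without the pair. From the same locus miR-125a-5p had 10334 and 16637 counts, a TMM log2 ratio of 1.54, so the products of this locus differed. Both were neither. The family as a whole took 1.13% of ESC counts and 0.390% of RA-DIFF counts, or 2.33% of those left without the pair.

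The let-7 family, which accumulates as cells leave pluripotency and whose hairpins Lin28a and Lin28b block, showed no common direction. Of 19 members 3 were higher (15.8%, near the 12.6% of all), 2 lower (10.5%, against 30.6%) and 14 neither, and the median log2 ratio was -0.78 with the library total, 1.80 without the pair and 1.10 after TMM. The 3 higher ones were let-7j, with 0 and 156 counts, let-7c-1-3p and let-7a-2-3p, and all 3 reached the count minimum in RA-DIFF alone. let-7c-5p had 9541 counts in ESC and 11281 in RA-DIFF, let-7a-5p 2955 and 7615, and let-7g-5p 4287 and 2077. let-7b-5p had 203 and 47 counts, with log2 ratios of -3.13 with the library total and -0.56 without the pair. Several let-7 miRNAs differ by a single base, and their split is uncertain. In the matched RNA-seq, Lin28a was at 227 CPM in ESC and 7.06 CPM in RA-DIFF and Lin28b at 45.4 and 14.8 CPM.

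The miR-17 to miR-92 clusters, which promote proliferation, had 10 of 28 members lower (35.7%, near the 30.6% of all members) and none higher, with a median TMM log2 ratio of -0.81. All lower members except miR-18a-5p came from the copy on the X chromosome, such as miR-106a-5p with 9291 counts in ESC and 863 in RA-DIFF, miR-18b-5p with 12487 and 1687 and miR-20b-5p with 13776 and 1647, at TMM log2 ratios of -2.57, -2.03 and -2.21. Of the chromosome 14 copy, miR-17-5p had 22957 and 13195 counts and miR-20a-5p 25122 and 13913, with TMM log2 ratios of 0.06 and 0.00, and miR-18a-5p with 29193 and 3985 was lower at -2.02. From the X chromosome copy, miR-363-3p with 22255 and 5416 counts was neither. miR-106a-5p and miR-17-5p differ by 1 base, so the split of reads between them is uncertain. miR-92b-3p, which has the seed of miR-92a-3p but its own gene on chromosome 3, had 30966 and 178176 counts and was higher, with a TMM log2 ratio of 3.38.

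The miR-181 family ranked second by seed in RA-DIFF, after that of miR-10, and its members divided by gene. The 4 miRNAs with the seed ACAUUCA together took 1.12% of ESC counts and 3.09% of RA-DIFF counts, or 18.5% of those left without the miR-10 pair. miR-181a-5p, encoded on chromosomes 1 and 2, had 2088 counts in ESC and 603588 in RA-DIFF, a log2 ratio of 7.16 with the library total and 9.03 after TMM. miR-181b-5p, from the same hairpin pairs, had 320 and 70336 counts, a TMM log2 ratio of 8.64. In contrast miR-181c-5p, from chromosome 8, was the ESC form with 109543 counts and had 62966 in RA-DIFF, and miR-181d-5p beside it had 22781 and 13824, and neither passed the limit in either direction. miR-181a-5p and miR-181c-5p are 1 difference apart, so the split between them is uncertain, but the opposite strands divided in the same way, with 36 and 24481 counts for miR-181a-1-3p and 13223 and 22145 for miR-181c-3p. A group of miRNAs was found almost only in RA-DIFF. miR-216b-5p had 0 counts in ESC and 1308 in RA-DIFF, at least 215-fold higher with the library total, and miR-217-5p from the same cluster 0 and 833, at least 137-fold higher. miR-1251-5p had 1 and 845 counts (TMM log2 ratio 10.58, counting interval 8.10 to 15.89).

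The 102 members from the imprinted Dlk1-Dio3 domain on chromosome 12, expressed from the maternal chromosome, made up the largest list. Of these 56 were lower in RA-DIFF, or 54.9%, against 30.6% of all members, none was higher and 46 were neither, and the median TMM log2 ratio was -1.51. With the other RA-DIFF library in place, 24 of 102 were lower, or 23.5%, near the 25.1% of all 828 members. The larger share of lower miRNAs in the domain was thus seen with the library labelled Htt-null and not with the other. With that other library the median TMM log2 ratio of the domain still lay below that of all members, at -1.03 against -0.34. The domain took 18.4% of ESC counts and 1.86% of RA-DIFF counts, or 11.1% of those left without the miR-10 pair. miR-127-3p, which lies antisense to the imprinted gene Rtl1, had 1115404 counts in ESC and 122315 in RA-DIFF, a TMM log2 ratio of -2.33. miR-410-3p had 214172 and 39657 counts, miR-329-3p 2248 and 243 and miR-379-5p 15494 and 543, with TMM log2 ratios of -1.58, -2.35 and -3.98. With the library total miR-434-3p was among the least changed of the domain, with 122992 and 94569 counts and a log2 ratio of -1.40. Its ratio was 0.48 after TMM and 1.17 without the pair, so that rank depends on the scaling. The host transcripts of these hairpins did not fall alike in the matched poly-A RNA-seq: Meg3 had 138 CPM in ESC and 415 CPM in RA-DIFF, Rian 408 and 458 CPM, and Mirg 14.6 and 17.2 CPM.

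For the Sfmbt2 intron miRNAs, a large set of related hairpins known from trophoblast and ESC, 2 of 41 members were lower (4.88%, against 30.6% of all), none was higher and 39 were neither, with a median TMM log2 ratio of -0.19. The miR-15 and miR-16 family, which restrains the cell cycle, had 5 of 12 members lower (41.7%, against 30.6% of all members) and 1 higher (8.33%, against 12.6%), with a median TMM log2 ratio of -1.20, and the abundant miR-16-5p, with 133673 counts in ESC and 36034 in RA-DIFF, had log2 ratios of -2.91 with the library total and -0.34 without the pair. miR-34a-5p, a target of p53, had 10880 and 755 counts, a TMM log2 ratio of -2.99, whereas miR-34c-5p had 6010 and 8035 and was neither. In the miR-34 and miR-449 families 3 of 7 members were lower (42.9%, against 30.6% of all members) and none was higher, with a median TMM log2 ratio of -0.70.

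miRNAs known from other cell types were examined as markers of what the RA-DIFF sample could hold. Of 14 mesenchyme members 5 were lower (35.7%), 1 was higher (7.14%) and 8 were neither, near the 30.6% and 12.6% of all members, with a median TMM log2 ratio of -0.30. miR-143-3p, known from smooth muscle, had 80585 counts in ESC and 13347 in RA-DIFF, and miR-145a-5p 446 and 64, at TMM log2 ratios of -1.74 and -1.94. miR-214-3p was the higher one, with 55 and 233 counts. Of mRNAs known from such cells 3 were looked up, and Acta2, a smooth muscle actin, went from 1.45 to 619.8 CPM, Col1a1 from 5.52 to 192 CPM, and Dnm3os, the host of the miR-199a and miR-214 hairpins, from 0.189 to 31.6 CPM, and their part in the miRNA results was not tested. Of 15 endothelial and blood members 7 were lower (46.7%, against 30.6% of all members) and 1 was higher (6.67%, against 12.6%), with a median TMM log2 ratio of -1.15. The blood marker miR-142a-5p went from 1800 counts to 21 and the red cell marker miR-451a from 20 to 4. The higher one was miR-126a-5p, with 6 and 23 counts, while the endothelial miR-126a-3p, with 1380 and 1840, and the erythroid miR-486a-5p, with 23 and 67, were neither, at TMM log2 ratios of 1.27 and 2.40. The 5 muscle members had at most 281 counts in a library, 2 of them were higher (40.0%, against 12.6% of all) and none lower, with a median TMM log2 ratio of 0.86 (-1.02 with the library total). Of these, miR-133a-3p had 8 and 52 counts and miR-206-3p 0 and 19, so that the higher ones reached the count minimum in RA-DIFF alone, while miR-1a and miR-1b were not members. Of 5 endoderm and liver members, with a median TMM log2 ratio of 2.44, 2 were higher (40.0%, against 12.6% of all), miR-375-3p with 110 and 2421 counts and miR-122-5p with 1 and 78 (TMM log2 ratio 7.14, counting interval 4.62 to 12.46), and miR-194-5p was lower with 1336 and 191 (20% of the list, against 30.6%).

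Outside the 17 lists lay 487 members, of which 63 were higher (12.9%) and 123 lower (25.3%), near the 12.6% and 30.6% of all members. After miR-181 and miR-92b-3p, the most abundant higher ones in RA-DIFF were miR-149-5p, with 2435 counts in ESC and 8985 in RA-DIFF, miR-335-5p, with 1578 and 6505, miR-676-3p, with 1042 and 5394, and miR-488-3p, with 198 and 4371. Of 11 members from the miR-23, miR-27 and miR-24 clusters 9 were lower, and miR-23b-5p and miR-27b-5p were neither. Among the lower ones miR-27b-3p had 250243 and 30586 counts, miR-27a-3p 27249 and 1378 and miR-24-3p 17694 and 613, with TMM log2 ratios of -2.18, -3.45 and -3.99. miR-191-5p had 371363 and 32820 counts, a TMM log2 ratio of -2.64. The sequences of the higher, lower and neither groups had the same median length of 22 bases and the same median GC content of 50%, and U was the first base in 35.8%, 39.7% and 40.5% of them.

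A miRNA that lies within another gene can be set beside its host in the matched RNA-seq, and 366 members lay within 222 host genes with at least 100 counts over both Htt-null RNA-seq libraries. Across all hosts the median log2 CPM ratio was 0.29, with 84 hosts above 0.75 and 41 below -0.75. The 29 hosts with a higher miRNA had a median log2 CPM ratio of 3.71, and 25 of them were above 0.75. For the 60 hosts with a lower miRNA the median was -0.31, and 21 were below -0.75. Rmst, a long non-coding RNA of neural progenitors that holds miR-1251 and miR-135a-2, had 2 counts in ESC and 2394 in RA-DIFF, and Igf2, host of miR-483, 131 and 43494. The transcript 2610203C20Rik, which carries miR-100, let-7a-2 and miR-125b-1, had 34 and 28413 counts. On the lower side Rcan3, host of miR-700, had 2372 and 2790 counts, a log2 CPM ratio of -0.43, while miR-700-3p had 1939 and 21, a TMM log2 ratio of -5.67. Over the 222 hosts the correlation between host and miRNA ratios had r = 0.67, given as a description, since the hosts share the same 4 libraries.

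The ratio of the 2 arms of one hairpin does not depend on the scaling of a library. It was measured for 191 hairpin names with at least 100 counts over both arms in each library. For 96 of them the log2 ratio of 5p over 3p counts differed by more than 1 between RA-DIFF and ESC, 52 toward the 5p arm and 44 toward the 3p arm, and the major arm changed in 12. The largest shift toward 5p was that of miR-485, where the 5p arm took 11.5% of counts in ESC and 77.9% in RA-DIFF, with 730 and 472 counts for 5p and 5605 and 134 for 3p, a log2 shift of 4.76 (95% interval 4.46 to 5.06). For miR-335, in the imprinted Mest gene, the 5p share went from 4.29% to 44.5%, a log2 shift of 4.16, while the Mest mRNA went from 5896 to 255493 counts. miR-15a, let-7i and miR-1193 followed with log2 shifts of 3.88, 3.50 and 3.01. Toward 3p, miR-199a went from 89.7% to 41.8% 5p, a log2 shift of -3.60 (95% interval -3.85 to -3.36), with 2710 and 422 counts for 5p and 310 and 587 for 3p. The deposited counts have a 5p but no 3p entry for miR-199b, so these 3p counts could include reads of that hairpin, which was not tested. The shifts of miR-3068, miR-712, miR-187 and miR-101b toward 3p were of -3.95, -3.12, -3.39 and -3.99, the last resting on 23 and 1 counts of the 5p arm. For miR-124 the 5p share was 21.6% in ESC and 65.5% in RA-DIFF, a log2 shift of 2.79 (95% interval 2.62 to 2.95). The shift had the same sign in cells labelled wild type for 91 of the 96.

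**Figure D4:**
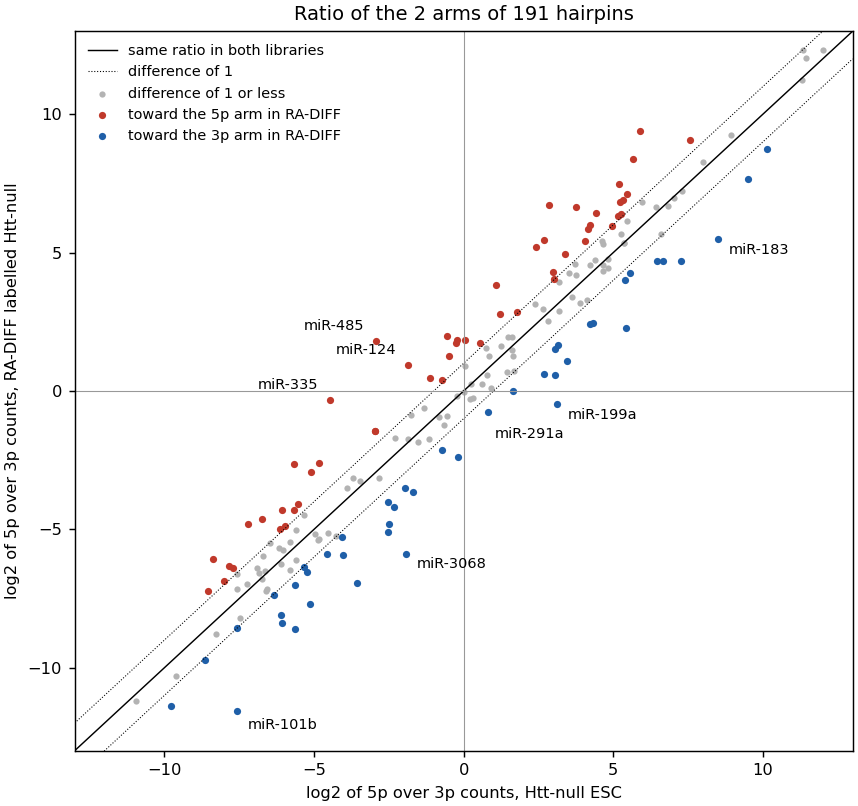
Each point is 1 of 191 hairpins, with the log2 of 5p over 3p counts in the Htt-null ESC library on the x axis and in the RA-DIFF sample labelled Htt-null on the y axis. Dotted lines mark a difference of 1, red points moved toward the 5p arm (52) and blue points toward the 3p arm (44), and miR-485 lies furthest above the diagonal.

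Of 259 pairs in which both arms of a hairpin were members, both arms were higher in 21, both lower in 56 and both neither in 104, and 13 had one higher arm and 64 one lower arm beside one that was neither. Thus, of the 155 pairs with an arm past the limit, 77 shared the direction and 78 did not. The one pair with opposite calls was miR-3547, whose 3p arm had 3 counts in ESC and 12 in RA-DIFF and whose 5p arm had 12 and 1, too few to separate the 5p change from counting error (TMM log2 ratio -2.73, counting interval -8.15 to 0.03).

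Over the 18 chromosomes with at least 15 members, counting the 678 members with a single RefSeq position, the share of lower members ran from 8.82% on chromosome 2 to 56.5% on chromosome 8, against 33.5% of the 678, and clustered hairpins are not independent of each other. On chromosome 12, 61 of 118 were lower, 56 of them from the Dlk1-Dio3 domain, and 4 were higher. On chromosome 8, 13 of 23 were lower and none higher, on chromosome 4, 16 of 30 were lower and 2 higher, and on chromosome 6, 13 of 25 were lower and 2 higher. Higher members outnumbered lower ones on 5 chromosomes, with 8 higher and 3 lower on chromosome 2, 9 and 6 on chromosome 1, 5 and 3 on chromosomes 16 and 17 alike, and 3 and 2 on chromosome 15. On these the share of higher members ran from 17.6% on chromosome 15 to 27.3% on chromosome 1, against 12.8% of the 678.

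The same comparison in cells labelled wild type shares no library with this one. It had 846 members, of which 152 were higher (18%) and 176 lower (20.8%). Of the 104 miRNAs higher in the Htt-null comparison 92 were higher in both, which is 88.5% of the Htt-null and 60.5% of the wild-type set. The 135 miRNAs lower in both were 53.4% of the Htt-null and 76.7% of the wild-type set. With the RA-DIFF libraries exchanged, 99 were higher in both (77.3% and 82.5%) and 139 lower in both (66.8% and 72.0%). The miR-10 pair took 79.9% of the wild-type RA-DIFF counts and 0.438% of the wild-type ESC counts. Over 786 miRNAs that were members in both, the TMM log2 ratios had r = 0.88, given as a description. Of the 253 miRNAs lower in cells labelled Htt-null, 94 were neither in cells labelled wild type, and 46 of these came from the Dlk1-Dio3 domain. In this domain the TMM log2 ratio was below that of the wild-type comparison for 94 of the 98 miRNAs that were members in both, with a median difference of -1.94, against 389 of 786 and a median difference of 0.02 over all such members. The median TMM log2 ratio of the domain was -1.51 in cells labelled Htt-null and 0.36 in cells labelled wild type, where it was -0.80 with the library total and 1.51 without the miR-10 pair. The domain took 18.4% of the ESC counts labelled Htt-null and 6.62% of those labelled wild type, and 1.86% and 3.20% in RA-DIFF, so that both stages differed in share between the labels. The RA-DIFF samples also differed in marker mRNAs: in the one labelled Htt-null against the one labelled wild type, Pou5f1 was at 1.22 and 11.97 CPM, Acta2 at 619.8 and 41.5 CPM, Col1a1 at 192 and 47.9 CPM, and Tubb3, a tubulin gene of neurons, at 265 and 887 CPM, and the part of these differences in the miRNA ratios was not tested. With the other RA-DIFF library against Htt-null ESC the median of the Dlk1-Dio3 domain was -1.03, against -0.34 over all members. miR-127-3p had 478156 counts in wild-type ESC and 227985 in the RA-DIFF sample labelled wild type, a TMM log2 ratio of -0.90. Whether these ratios differ between the genotypes beyond the spread between cultures was not tested, as there is 1 library per condition.

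**Figure D5:**
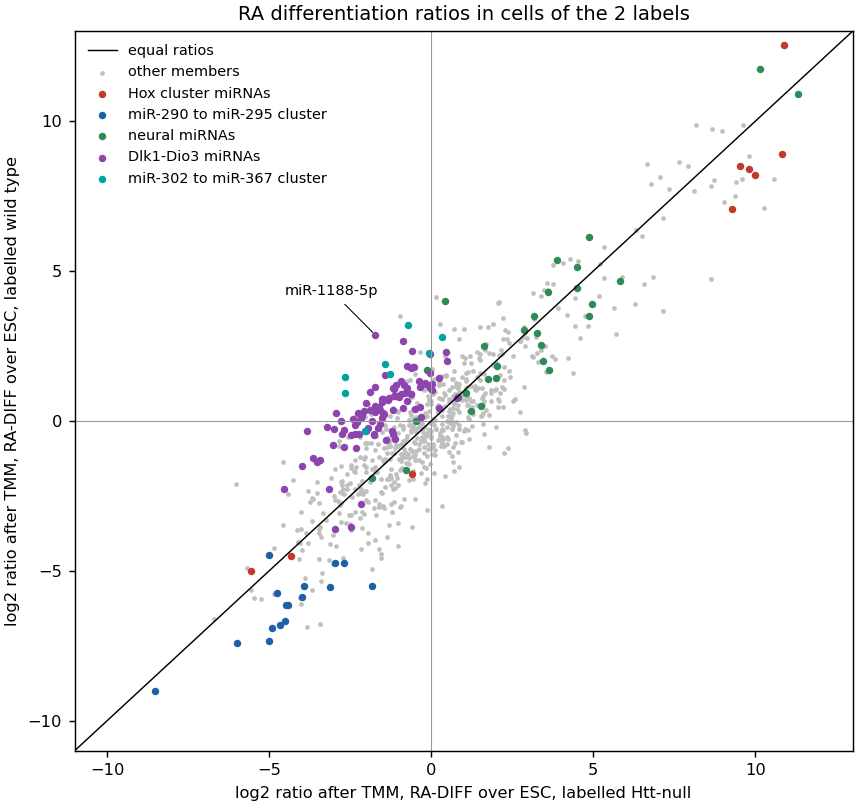
TMM log2 ratios of RA-DIFF over ESC are plotted for the 786 miRNAs that were members in both comparisons, in cells labelled Htt-null (x axis) and wild type (y axis), with the line of equal ratios. The Dlk1-Dio3 miRNAs lie above the line in 94 of 98 cases, the miR-302 to miR-367 miRNAs in 8 of 8, and the miR-290 to miR-295 miRNAs are at the lower left in both.

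Of the 17 lists, 3 others also had TMM medians of opposite sign. For the miR-302 to miR-367 cluster they were -1.41 in cells labelled Htt-null and 1.57 in cells labelled wild type. miR-302b-3p had 528 counts in wild-type ESC and 3288 in the RA-DIFF sample labelled wild type, a TMM log2 ratio of 2.81 against 0.32 in cells labelled Htt-null. With the other RA-DIFF library against Htt-null ESC the median of the list was -0.07. For the let-7 family the medians were 1.10 and -0.43, and both changed sign with the scaling. For the miR-34 and miR-449 families they were -0.70 and 0.19, and the latter was -0.98 with the library total. The lists of neural miRNAs, with medians of 3.18 and 2.55, of the Hox cluster miRNAs, with 9.52 and 8.22, and of the miR-183 cluster, with -3.27 and -3.43, had the same sign in cells of both labels.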

How the data were processed

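Small RNA libraries were sequenced as single-end reads. The authors removed adapters (cutadapt 1.3), selected reads by length, placed them on miRBase mature sequences (BWA 0.7.5a-r418, allowing 1 mismatch), retained unique alignments (SAMtools 0.1.18) and deposited the raw counts. For the RNA-seq table they aligned poly-A reads to GRCm38 with TopHat2 2.0.14 and deposited HTSeq 0.6.1 counts per gene. Each column was assigned to a sample by its name, and 0 columns were left out.

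Ratios were computed from the counts with Python 3.11.15, pandas 2.3.3 and scipy 1.17.1. TMM factors over the 4 small RNA libraries came from edgeR 4.0.16 (R 4.3.3) and were checked on simulated counts. The simulation had equal numbers of rises and falls beside the miR-10 pair, so it did not cover unbalanced changes such as those found here. A count of 0 was set to a floor of 3. Intervals are at the 95% level, exact (Clopper-Pearson) for shares and count ratios and from log odds for arm shifts. The widest interval of a share of 1 miRNA reached 0.0197 percentage points to either side with the library total and 0.0346 without miR-10a-5p and miR-10b-5p. PCR reads without molecular identifiers are not independent molecules.

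Members and lists were chosen with earlier results of these data known. Named were the 4 most abundant members of each list, the 10 largest increases and decreases among members with at least 100 counts, the 10 most abundant miRNAs per library, the 5 largest arm shifts each way, miRNAs the study names and opposite calls. Not every miRNA that this rule takes is described, and miRNAs named beyond it were chosen after their values were seen. Alternatives were other scalings, count minima, fold limits, a prior count, an assumed dispersion and the other RA-DIFF library.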

Additional observations from a re-analysis of the deposited data

Results flagged for a closer look

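miR-1188-5p, a miRNA of the Dlk1-Dio3 domain, was the only miRNA past the limit in opposite directions in the comparisons labelled Htt-null and wild type. It had 60 counts in Htt-null ESC and 10 in the RA-DIFF sample labelled Htt-null, a TMM log2 ratio of -1.73. It had 4 counts in wild-type ESC and 26 in the RA-DIFF sample labelled wild type, a TMM log2 ratio of 2.87. With the RA-DIFF libraries exchanged it passed the limit under all 3 scalings on neither side: the log2 ratio against Htt-null ESC was -2.31 with the library total and 0.01 without the miR-10 pair, and against wild-type ESC 0.41 and 2.98. The difference was not tested, since there is 1 library per condition.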

How the results depend on the processing

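Of the 110 named miRNAs, the 62 that passed the limit kept their sign with the other RA-DIFF library, while under the other scalings the rule itself fixed it. Of the other 48 the sign held for 26 with the library total alone, 36 without the miR-10 pair, 42 with TMM over the 2 Htt-null libraries or median-of-ratios factors and 36 with the other RA-DIFF library. The count of higher members, 104 under all 3 scalings, was 347 without the miR-10 pair alone, 245 with TMM alone, 67 with at least 100 counts in place of 10, and 203 of 687 miRNAs tested by edgeR's exact test at an assumed dispersion of 0.01. The count of lower members, 253, was 628 with the library total alone and 167 with at least 100 counts. The first group of changes follows from dropping the requirement that all scalings pass, the count minimum leaves fewer members, and for the exact test the cause was not tested. At an assumed dispersion of 0.1 the exact test gave 152 and 201, and with the other RA-DIFF library 128 were higher and 208 lower. No paired analysis was possible because the Htt-null comparison has 1 library per condition, and for the same reason no replicate could be left out; a fit over the 4 libraries with the line as a block, which would concern the stage over both lines, was not run. Depth limits the miRNAs near the count minimum: a log2 ratio had a counting interval of up to 0.39 either side for the 343 members with at least 100 counts in both libraries.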
